A study of Mus musculus with 8 samples.

Results

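The genes described here are 10 genes of excitation-contraction coupling in cardiomyocytes, *Ryr2*, *Trdn*, *Casq2*, *Hrc*, *Atp2a2*, *Pln*, *Sln*, *Cacna1c*, *Jph2* and *Slc8a1*. They were chosen by name and not by a rule on their measured values, but with earlier results of these data known. All 10 were found among the 49315 Ensembl genes counted in each library. RNA-seq measured polyadenylated RNA of whole mouse hearts at embryonic day (E) 9.5 in 8 libraries, each made from 3 pooled hearts. Of these, 4 were wild-type and 4 were homozygous for Tbx20EH1Mut, and the labels name no other allele and no treatment. Tbx20EH1Mut is a germline allele of the T-box factor gene *Tbx20*, made by genome editing, and every cell of a mutant embryo carries it. It replaces a phenylalanine and the serine beside it in the engrailed homology (EH1) domain, through which Tbx20 binds the TLE corepressors. The comparison of the genotypes addressed how the calcium handling messages differ in hearts in which this binding is disrupted.

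At each heartbeat, calcium enters a cardiomyocyte through the L-type channel and triggers the ryanodine receptor to release more calcium from the sarcoplasmic reticulum, the calcium store of muscle cells. The SERCA pump then returns most of the calcium to the store, and the sodium-calcium exchanger moves the rest out of the cell. The embryonic heart tube already beats while it loops and forms chambers, at a stage when its sarcoplasmic reticulum is still sparse.

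In Tbx20EH1Mut hearts the SERCA pump message *Atp2a2* fell 1.87-fold, the exchanger message *Slc8a1* fell 3.92-fold and the message of the store protein *Casq2* fell 1.87-fold, while that of the pump inhibitor *Pln* rose 1.67-fold (quasi-likelihood test of edgeR, Benjamini-Hochberg adjusted p of 0.00710, 0.0176, 0.0308 and 0.0341). A gene was called where this adjusted p was below 0.05 and the absolute log2 fold change above 0.5. *Ryr2*, *Trdn*, *Hrc*, *Cacna1c* and *Jph2* did not pass, and *Sln* had too few counts to be tested. Thus 3 of the 9 tested genes were called lower and 1 higher, where 12.1% of all 17163 genes tested were called lower and 12.5% higher. By the adjusted p alone the counts of members were the same, against 15.3% lower and 14.0% higher of all genes. The split over all genes, 2070 lower and 2148 higher, was 1566 and 2516 with upper-quartile scaling and 720 and 1464 with scaling to the cardiomyocyte markers. Under the latter *Atp2a2* (edgeR adjusted p = 0.0479) and *Pln* (0.0365) stayed called, while *Slc8a1* (0.0531) and *Casq2* (0.113) did not. The log2 fold changes of the latter 2 genes, -2.06 and -0.88, stayed close to the -1.97 and -0.90 without that scaling. Each of the 4 genes kept its direction. The median log2 fold change was -0.17 over the 9 genes and 0.00477 over all genes tested. In *Atp2a2* and *Pln* alone, 2 of the 9, the genotypes did not overlap, against 30.5% of all genes tested. Because the libraries are bulk RNA, fewer cardiomyocytes and less message per cardiomyocyte cannot be told apart.

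The calls did not all rest on the same ground. *Atp2a2* was called in each of the 8 fits that left out 1 library. *Slc8a1* was not called without Tbx20EH1Mut replicate 4 (log2 fold change -1.90, edgeR adjusted p = 0.0574). The call of *Casq2* was lost without wild-type replicate 2 (0.0501) or 4 (0.0920) or without Tbx20EH1Mut replicate 1 (0.0617), 3 (0.0629) or 4 (0.0840). *Pln* was not called without wild-type replicate 2 (0.0588) or 3 (0.0959) or without Tbx20EH1Mut replicate 2 (0.0693), 3 (0.0637) or 4 (0.0860). Over the 8 fits the log2 fold change ran from -1.09 to -0.75 for *Casq2* and from 0.60 to 0.93 for *Pln*. Without Tbx20EH1Mut replicate 4, therefore, *Atp2a2* was the only call among the 10.

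Beside these results stand several properties of the libraries. Total counts lay between 33359322 and 49523086 in wild-type and between 36250675 and 38357025 in Tbx20EH1Mut libraries. The pair of libraries of 1 genotype that differed most was wild-type replicates 1 and 2. Genes with exons of more than 6 kb in sum lay a median of 0.28 (log2) above their mean over all libraries in wild-type replicate 2, and genes under 2 kb lay 0.48 below it there and 0.32 above it in Tbx20EH1Mut replicate 3. *Tbx20* itself was lower in every Tbx20EH1Mut library, with means of 368 ± 11.1 and 267 ± 44.9 CPM (SD, n = 4 each). CPM are counts per 1000000 of the TMM-scaled library size. The log2 difference of *Tbx20* was -0.46 (edgeR adjusted p = 0.0273, or 0.210 under the foregut covariate described below), under the fold threshold. The edited codons are not visible in gene counts, and the genotype was taken from the labels. The hearts carried cardiomyocyte markers at similar levels. The 9 genes of that list summed to between 26163 and 37337 CPM in wild-type and between 26972 and 41459 CPM in Tbx20EH1Mut libraries, and 1 of them, *Actn2*, was called, lower. All 5 erythroid markers were called lower (summed level 1754 to 4588 against 318 to 1024 CPM), and 3 of 6 foregut epithelium markers (1.08 to 51.1 against 28.8 to 178 CPM) and 3 of 6 endothelial markers (429 to 584 against 553 to 624 CPM) were called higher. Of 4 smooth muscle markers none was called (4145 to 4944 against 4723 to 7564 CPM), of 4 tested neural markers 1 was called lower and 1 higher (10.5 to 22.3 against 8.47 to 14.8 CPM), and of 2 tested neural crest markers none was called (50.6 to 55.6 against 62.9 to 68.7 CPM). The 5 skeletal muscle markers summed to at most 0.363 CPM in any library, with *Myf6* at 0 counts in all 8. Values relative to the cardiomyocyte markers, with the mean log2 level of the foregut markers in the fit as a covariate and with an offset on exon length are given below. The part of the erythroid, endothelial and other marker differences in the results was not tested. Under the foregut covariate all 4 called members stayed called, with log2 fold changes of -1.27 for *Atp2a2* (edgeR adjusted p = 0.00208), -3.30 for *Slc8a1* (0.000804), -1.34 for *Casq2* (0.0321) and 1.12 for *Pln* (0.0298). That fit called more genes in general, 20.3% of all genes lower and 18.6% higher. Foregut marker level ran largely with genotype. Its sums overlapped only in wild-type replicate 2 (51.1 CPM) and Tbx20EH1Mut replicate 3 (28.8 CPM). A fit with this covariate therefore cannot separate foregut marker level from genotype, and its larger fold changes rest largely on these 2 libraries.

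**Figure D1:**
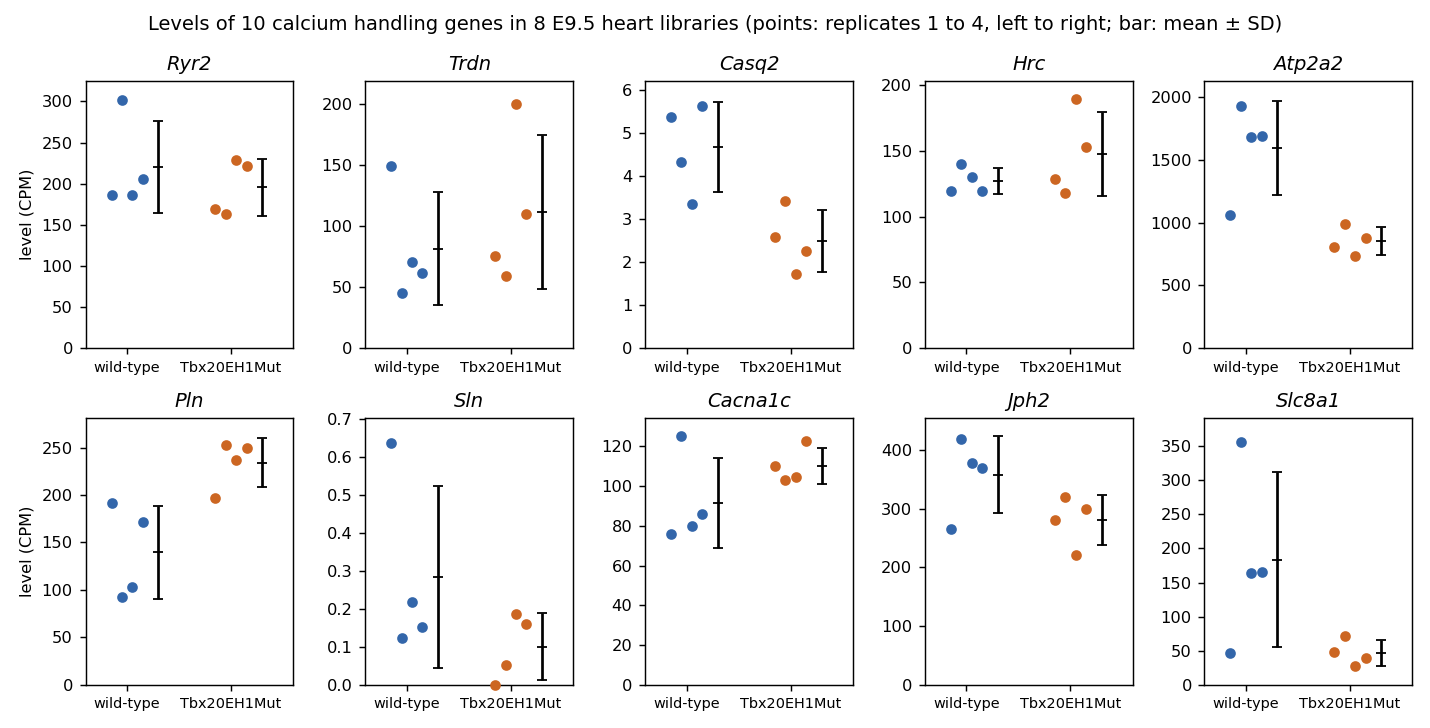
Level of each of the 10 genes in CPM (vertical axis from 0) in the 4 wild-type (blue) and 4 Tbx20EH1Mut (orange) libraries. Points are replicates 1 to 4 from left to right and bars are mean ± SD. The genotypes are separate for *Atp2a2* and *Pln* and overlap for the other genes.

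Promoter sequence was looked at for the members that were called, to show what lies at their starts. RefSeq's table for GRCm38.p6 held windows from 250 bases before to 50 after an annotated start for 7 of the 10 genes, 10 windows in all, and none for *Atp2a2*, *Trdn* or *Sln*. Shown 5′ to 3′ on the gene's strand are those of *Pln* (chr10:53337436-53337735, plus strand), *Casq2* (chr3:102086165-102086464, plus strand) and *Slc8a1* (chr17:81738338-81738637, minus strand), the last of which lies outside the span over which *Slc8a1* was counted. Capitals mark AGATAA, a form of the GATA motif, on either strand. Other forms of that motif were not searched for and are not marked.
Pln: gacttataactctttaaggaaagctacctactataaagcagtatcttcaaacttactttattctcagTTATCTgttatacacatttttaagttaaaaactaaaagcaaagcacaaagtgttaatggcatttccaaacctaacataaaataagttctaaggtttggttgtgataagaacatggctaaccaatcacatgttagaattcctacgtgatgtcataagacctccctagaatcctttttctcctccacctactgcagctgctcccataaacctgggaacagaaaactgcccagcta
Casq2: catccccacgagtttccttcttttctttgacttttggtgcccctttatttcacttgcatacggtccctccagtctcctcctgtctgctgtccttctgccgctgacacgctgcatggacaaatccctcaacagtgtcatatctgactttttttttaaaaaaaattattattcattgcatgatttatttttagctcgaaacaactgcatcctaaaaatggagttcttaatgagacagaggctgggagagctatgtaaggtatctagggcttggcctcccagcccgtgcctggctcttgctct
Slc8a1: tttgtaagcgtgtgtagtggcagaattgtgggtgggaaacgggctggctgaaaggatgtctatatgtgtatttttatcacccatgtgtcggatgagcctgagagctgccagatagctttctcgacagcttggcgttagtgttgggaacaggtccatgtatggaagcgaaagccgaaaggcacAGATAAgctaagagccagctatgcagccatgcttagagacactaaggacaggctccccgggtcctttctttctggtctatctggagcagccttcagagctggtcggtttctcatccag
AGATAA or its reverse complement was found in 2 of the 10 windows, those of *Pln* and *Slc8a1*, against 11.2% of 32851 such windows over all genes. The T-box core AGGTGT was found, on either strand, in 1 of the 10 windows, at one of the 3 annotated starts of *Cacna1c*, against 13.7%. The motifs do not overlap each other in these windows. A match is a string of letters and not a binding site.

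In what follows, the values of single libraries are given in the order of replicates 1 to 4. Reuptake of calcium is the work of SERCA2, encoded by *Atp2a2* (ENSMUSG00000029467, chromosome 5 from 122453513 to 122502225 of GRCm38, minus strand). *Atp2a2* was at 1057, 1933, 1684 and 1691 CPM in the wild-type and at 808, 993, 734 and 878 CPM in the Tbx20EH1Mut libraries. Each Tbx20EH1Mut library lay below each wild-type library, and wild-type replicate 1 came closest to the mutant range. The means were 1591 ± 374 and 853 ± 110.2 CPM (SD, n = 4 each), which is -0.90 on the log2 scale (standard error 0.188, 95% interval -1.32 to -0.48). Leaving out 1 library gave values from -1.06 to -0.78. When libraries were scaled to the summed counts of the cardiomyocyte markers, so that the fold change is relative to those markers, it was -0.94 (edgeR adjusted p = 0.0479). Its exons share 83 bases, 1.36% of their length, with the predicted gene *Gm43361* on the other strand, with 1541 against 416949 counts summed over all libraries.

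Phospholamban, encoded by *Pln* (ENSMUSG00000038583, chromosome 10 from 53337686 to 53345999, plus strand), is a small membrane protein that binds SERCA2 and lowers its affinity for calcium until it is phosphorylated. Its promoter window, printed above, holds 1 match to AGATAA, the only form of the GATA motif searched for. *Pln* was at 192, 92.4, 104 and 171 CPM in the wild-type and at 197, 253, 237 and 249 CPM in the Tbx20EH1Mut libraries. Every Tbx20EH1Mut library was above every wild-type library, but the lowest of them exceeded wild-type replicate 1 by little. The log2 fold change was 0.74 (standard error 0.227, 95% interval 0.24 to 1.25), with means of 139.7 ± 49.1 and 234 ± 25.6 CPM. Leaving out 1 library gave values from 0.60 to 0.93. With an offset that removes each library's trend on exon length, the value was 0.64 and no longer passed (edgeR adjusted p = 0.0523), the one of 10 alternatives with all 8 libraries in which *Pln* was not called. Relative to the cardiomyocyte markers it was 0.76 (edgeR adjusted p = 0.0365).

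Sarcolipin, encoded by *Sln* (ENSMUSG00000042045, chromosome 9 from 53850164 to 53854560, plus strand), inhibits SERCA pumps in a similar way and is known as a marker of atrial muscle later in development. It was close to the limit of detection, with 21, 6, 11 and 7 counts in wild-type replicates 1 to 4 and 0, 2, 6 and 6 counts in Tbx20EH1Mut replicates 1 to 4. The count of 0 in Tbx20EH1Mut replicate 1 allows a level of up to 0.0777 CPM (3 counts, counting error only). No level exceeded 0.637 CPM, and the genotypes overlapped (exact two-sided permutation test, p = 0.200). Without the filter on low counts its edgeR adjusted p was 0.308. No genotype difference in *Sln* was detected by these tests, and the size of difference they could detect was not measured. *Mrln* and *Strit1*, named here after their values were seen, encode micropeptides of the same pump and had at most 10 and 13 counts in any library.

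The inhibitor was also set against the pump within each library. Expressed per kilobase of exon, which allows genes to be compared, *Pln* stood at 0.444, 0.117, 0.151 and 0.249 of the level of *Atp2a2* in wild-type replicates 1 to 4 and at 0.598, 0.625, 0.791 and 0.696 of it in Tbx20EH1Mut replicates 1 to 4. The ratio was higher in each Tbx20EH1Mut library than in each wild-type library, and its means were 0.240 ± 0.147 and 0.677 ± 0.0862, which differ 2.82-fold. A ratio within a library does not depend on how libraries are scaled, but it sets 2480 exon bases of *Pln* against 6081 of *Atp2a2*. Its lowest and highest values are in wild-type replicate 2 and Tbx20EH1Mut replicate 3, the libraries with the opposite trends on exon length given above, and the part of those trends in the ratio was not tested. The ratio's p was 0.0286 in an exact two-sided permutation test, the smallest that 4 libraries against 4 allow. After Benjamini-Hochberg adjustment over the 5 ratios compared it was 0.143. With only a single ratio at the smallest p, no adjusted value below 0.05 was possible here. The ratio did not pass the correction but could not have passed it alone, so the correction decides nothing. Leaving out 1 library gave folds between 2.41 and 3.93. The ratio of *Sln* to *Atp2a2*, at most 0.00278 in any library, did not separate the genotypes (exact permutation p = 0.657, adjusted 0.657).

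**Figure D2:**
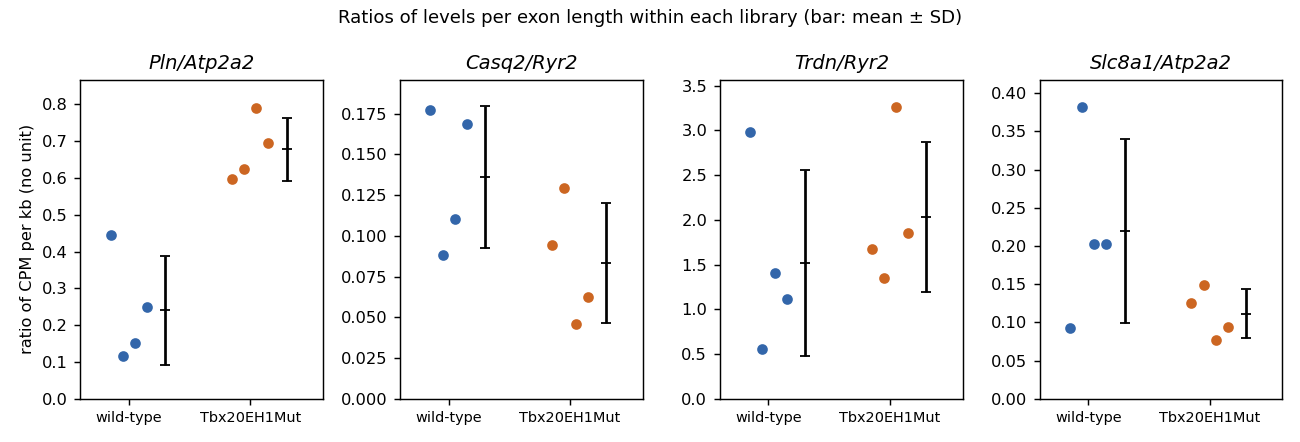
Ratio of levels per kilobase of exon between pairs of the genes (vertical axes from 0, no unit) in the 4 wild-type (blue) and 4 Tbx20EH1Mut (orange) libraries, with mean ± SD. The ratio of *Pln* to *Atp2a2* is at most 0.444 in wild-type and at least 0.598 in Tbx20EH1Mut libraries. The other 3 ratios overlap between genotypes.

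Extrusion of calcium depends on the sodium-calcium exchanger NCX1, encoded by *Slc8a1* (ENSMUSG00000054640, chromosome 17 from 81388691 to 81649607, minus strand), the only exchanger of the 3 in its family with a high level in these hearts. *Slc8a1* was at 47.1, 357, 164 and 166 CPM in the wild-type and at 48.7, 71.3, 27.4 and 39.8 CPM in the Tbx20EH1Mut libraries. Wild-type replicate 1 lay inside the mutant range and the other 3 wild-type libraries above it. It was the member that varied most between wild-type libraries, 7.57-fold from the lowest to the highest. The log2 fold change was -1.97 (standard error 0.508, 95% interval -3.10 to -0.84), with means of 183 ± 128 and 46.8 ± 18.5 CPM, and it was -2.29 without wild-type replicate 1 and -1.41 without wild-type replicate 2. With both of these left out, an alternative chosen after seeing the data, it was -1.82 (edgeR adjusted p = 0.00607). Relative to the cardiomyocyte markers it was -2.06, with an edgeR adjusted p of 0.0531. The exact two-sided permutation test of the level gave p = 0.0857. Set against the pump in the same library, per length, *Slc8a1* stood at 0.220 ± 0.120 of *Atp2a2* in wild-type and 0.111 ± 0.0319 in Tbx20EH1Mut hearts, and these ratios overlapped (exact permutation p = 0.114, adjusted 0.238). Without wild-type replicate 1 their p was 0.0286 and the adjusted value 0.0714.

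The calcium store is buffered by calsequestrin, which binds calcium at high capacity beside the release channel. The cardiac form, *Casq2* (ENSMUSG00000027861, chromosome 3 from 102086415 to 102146514, plus strand), was at 5.37, 4.34, 3.35 and 5.63 CPM in the wild-type and at 2.59, 3.43, 1.72 and 2.25 CPM in the Tbx20EH1Mut libraries. The ranges touched, since Tbx20EH1Mut replicate 2 lay above wild-type replicate 3 by little. The log2 fold change was -0.90 (standard error 0.268, 95% interval -1.49 to -0.31). With between 55 and 258 counts per library, *Casq2* had the fewest counts of the 9 tested members. Without wild-type replicates 1 and 2 together its log2 fold change was -0.84 (edgeR adjusted p = 0.101). Relative to the cardiomyocyte markers it was -0.88 and did not pass (edgeR adjusted p = 0.113).

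Nearly all calsequestrin message at this stage came from the paralog *Casq1*, the form known from fast skeletal muscle. Per kilobase of exon, *Casq1* was at a mean of 215 CPM per kb in wild-type hearts against 1.71 for *Casq2*, and it made up 99.1% to 99.4% of the sum of both in wild-type and 98.7% to 99.6% in Tbx20EH1Mut libraries. *Casq1* was at 493, 323, 414 and 451 CPM in the wild-type and at 152, 186, 277 and 238 CPM in the Tbx20EH1Mut libraries. It fell in Tbx20EH1Mut hearts without overlap, by a log2 fold change of -0.98 (SE 0.200, edgeR adjusted p = 0.00639), and the call held in all 8 fits that left out 1 library. With foregut marker level added as covariate its log2 fold change was -0.38 and did not pass (edgeR adjusted p = 0.154). The skeletal muscle markers were at or near 0, as given above. Of the exon bases of *Casq1*, 8.0% overlap *Gm17224* on the other strand, which had 473 counts against 104274.

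The histidine-rich calcium-binding protein, encoded by *Hrc* (ENSMUSG00000038239, chromosome 7 from 45335290 to 45338974, plus strand), is another protein of the store and binds triadin. *Hrc* stood at 119, 140.3, 129.98 and 119.6 CPM in the wild-type and at 128, 118, 189.9 and 153 CPM in the Tbx20EH1Mut libraries. The genotypes overlapped, and the highest value was in Tbx20EH1Mut replicate 3. The log2 fold change was 0.21 with a 95% interval from -0.13 to 0.55 (edgeR adjusted p = 0.311).

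Release of calcium runs through RyR2, the cardiac ryanodine receptor, encoded by *Ryr2* (ENSMUSG00000021313, chromosome 13 from 11553103 to 12106945, minus strand). *Ryr2* was at 186, 302, 186 and 206 CPM in the wild-type and at 169, 163, 229 and 221 CPM in the Tbx20EH1Mut libraries. The genotypes overlapped in part, with wild-type replicate 2 above every Tbx20EH1Mut library and Tbx20EH1Mut replicates 1 and 2 below every wild-type library. The fitted log2 change was -0.17 with a 95% interval from -0.58 to 0.24 (edgeR adjusted p = 0.510), and it was 0.03 without wild-type replicate 2, the highest library. Triadin, encoded by *Trdn* (ENSMUSG00000019787, chromosome 10 from 33083483 to 33476709, plus strand), anchors calsequestrin to the ryanodine receptor. *Trdn* was at 149, 44.7, 70.3 and 61.4 CPM in the wild-type and at 75.7, 59.1, 199.9 and 109.9 CPM in the Tbx20EH1Mut libraries. Wild-type replicate 1 and Tbx20EH1Mut replicate 3 were the high libraries of their genotypes. Its log2 fold change of 0.45 had the second widest 95% interval of the members, from -0.50 to 1.40 (edgeR adjusted p = 0.443), and was 0.91 without wild-type replicate 1 and 0.00402 without Tbx20EH1Mut replicate 3. With foregut marker level added as covariate it was 1.86 and passed (edgeR adjusted p = 0.00377).

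Relative to the release channel in the same library, per length, neither partner separated the genotypes. *Casq2* stood at 0.136 ± 0.0436 of *Ryr2* in wild-type and 0.0832 ± 0.0368 in Tbx20EH1Mut hearts (exact permutation p = 0.143, adjusted 0.238), and *Trdn* at 1.51 ± 1.04 and 2.03 ± 0.841 of it (exact permutation p = 0.457, adjusted 0.571).

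Entry of calcium is the role of the L-type channel Cav1.2, whose pore is encoded by *Cacna1c* (ENSMUSG00000051331, chromosome 6 from 118587240 to 119196418, minus strand). *Cacna1c* was at 75.8, 125, 79.7 and 85.7 CPM in the wild-type and at 110.2, 103, 105 and 123 CPM in the Tbx20EH1Mut libraries. All 4 Tbx20EH1Mut libraries lay above wild-type replicates 1, 3 and 4 and below wild-type replicate 2. This gave a log2 fold change of 0.27 (95% interval -0.09 to 0.62, edgeR adjusted p = 0.230). Without wild-type replicate 2 it was 0.47 with an edgeR adjusted p of 0.0114, still under the fold threshold, and with foregut marker level added as covariate it was -0.12. Junctophilin 2, encoded by *Jph2* (ENSMUSG00000017817, chromosome 2 from 163336242 to 163397993, minus strand), ties the surface membrane to the sarcoplasmic reticulum so that L-type channels and ryanodine receptors face each other. *Jph2* was at 266, 419, 378 and 370.0 CPM in the wild-type and at 279.9, 320.2, 221 and 299.8 CPM in the Tbx20EH1Mut libraries. Wild-type replicate 1 lay within the mutant range and the other wild-type libraries above it. Its log2 fold change was -0.35 (95% interval -0.72 to 0.01, edgeR adjusted p = 0.128). With foregut marker level added as covariate it was -0.75 and passed (edgeR adjusted p = 0.0152).

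**Figure D3:**
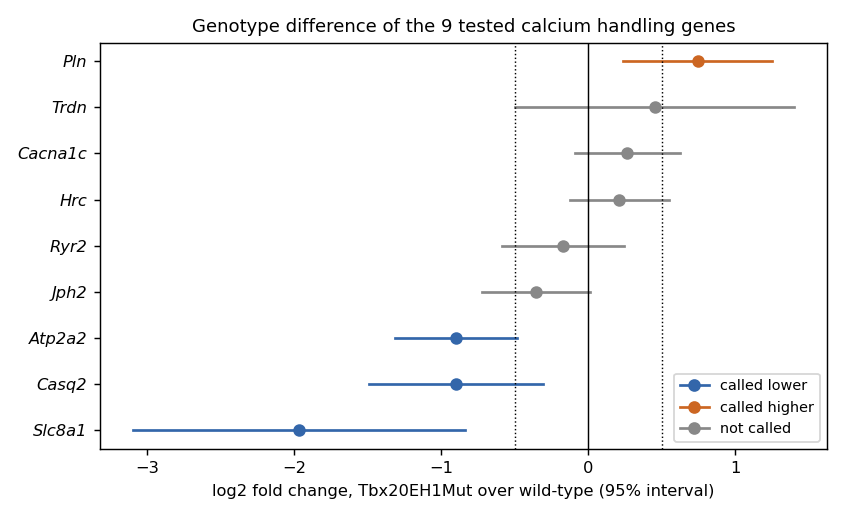
Log2 fold change of the 9 tested genes (horizontal axis, Tbx20EH1Mut over wild-type, n = 4 libraries each) with 95% intervals. Dotted lines mark the fold threshold of 0.5 in either direction. *Atp2a2*, *Casq2* and *Slc8a1* were called lower (blue), *Pln* was called higher (orange), and the others (grey) have intervals that include 0.

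The members did not vary together from library to library. Wild-type replicate 2 was the highest of all 8 libraries for *Ryr2*, *Atp2a2*, *Cacna1c*, *Jph2* and *Slc8a1* and the lowest for *Trdn* and *Pln*. Tbx20EH1Mut replicate 3 was the lowest for *Casq2*, *Atp2a2*, *Jph2* and *Slc8a1* and the highest for *Trdn* and *Hrc*. From the lowest to the highest library the level moved 13.0-fold for *Slc8a1*, 4.47-fold for *Trdn* and 1.61-fold for *Hrc*. The library trends on exon length given above run along the same libraries, and the part of those trends was tested with the offset on length only. Under that offset *Atp2a2*, *Casq2* and *Slc8a1* were still called, with log2 fold changes of -0.80, -0.99 and -2.04, and *Pln* was not (0.64, edgeR adjusted p = 0.0523).

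**Figure D4:**
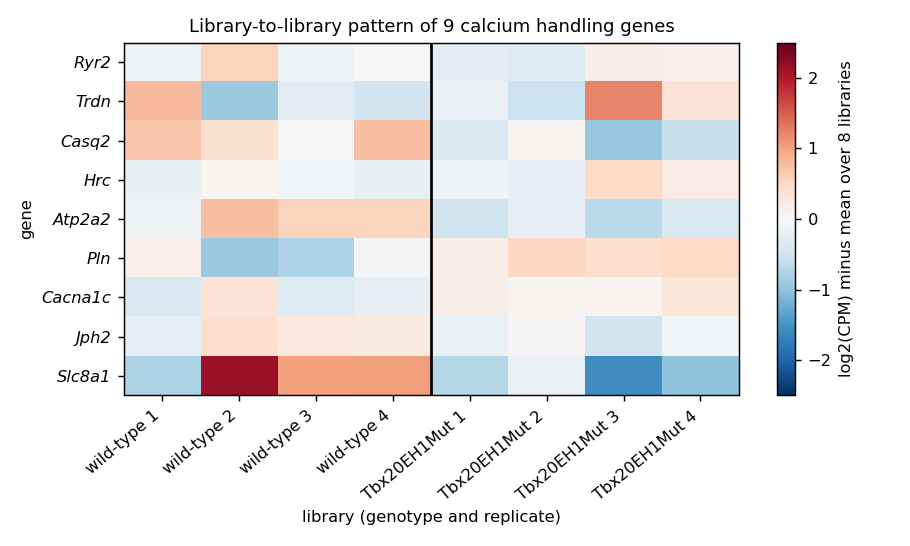
Colour shows log2 CPM of each of the 9 tested genes (rows) minus its mean over all 8 libraries (columns, 4 wild-type left of the line and 4 Tbx20EH1Mut right of it). Red is above and blue below the mean. Wild-type replicate 2 and Tbx20EH1Mut replicate 3 hold the extremes of *Slc8a1* and *Trdn*, in opposite directions.

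Per kilobase of exon the members spanned a wide range of levels. In wild-type hearts the order was *Atp2a2* (262 ± 61.5 CPM per kb), *Jph2* (84.2 ± 15.3), *Slc8a1* (62.5 ± 43.7), *Pln* (56.3 ± 19.8), *Hrc* (49.6 ± 3.88), *Trdn* (18.0 ± 10.2), *Ryr2* (13.1 ± 3.29), *Cacna1c* (4.32 ± 1.07), *Casq2* (1.71 ± 0.382) and *Sln* (0.215 ± 0.182). The ranges of neighbours overlapped from *Jph2* to *Hrc* and between *Trdn* and *Ryr2*, and elsewhere they did not. In Tbx20EH1Mut hearts *Pln*, at 94.3 ± 10.3 CPM per kb, came second, after *Atp2a2* (140.3 ± 18.1) and without overlap with *Jph2* (65.9 ± 10.04). *Slc8a1* (16.0 ± 6.31) came sixth there, and its range overlapped those of *Trdn* (24.6 ± 13.9) and *Ryr2* (11.6 ± 2.05). These levels depend on the exon lengths listed in the deposited tables, which run from 1318 bases for *Sln* to 21191 for *Cacna1c* and give *Slc8a1* 2934.

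Except for calsequestrin, the cardiac member made up most of each family's message per length in both genotypes. *Ryr2* was at least 98.7% of the ryanodine receptors in every library, *Atp2a2* at least 97.6% of the SERCA pumps, *Jph2* at least 96.7% of the junctophilins and *Slc8a1* at least 94.2% of the sodium-calcium exchangers. Among the minor paralogs, *Ryr3* fell from 1.78 ± 0.513 to 0.574 ± 0.154 CPM (log2 fold change -1.62, edgeR adjusted p = 0.00768, or 0.0551 without wild-type replicates 1 and 2) and *Atp2a1*, the SERCA1 gene known from fast skeletal muscle, from 14.8 ± 5.38 to 6.02 ± 0.523 CPM (log2 fold change -1.30, edgeR adjusted p = 0.00409). Both are uncertain, because 21.9% of the exon bases of *Atp2a1* overlap *Rabep2* and 4.83% of those of *Ryr3* overlap *Aven* on the other strand, and the strand setting of the counting is not given in the sources used here. *Ryr1*, *Atp2a3*, *Slc8a2*, *Slc8a3*, *Jph1*, *Jph3* and *Jph4* were not called, with log2 fold changes from -1.53 for *Slc8a3*, at 0.543 CPM in wild-type hearts, to 0.30 for *Atp2a3*. Under the foregut covariate *Slc8a2* (-1.25, edgeR adjusted p = 0.0129) and *Slc8a3* (-3.19, edgeR adjusted p = 0.0401) were called lower.

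A wider list of 70 genes covered the rest of calcium handling by role, and 66 of them were tested. Of these, 11 (16.7%) were called lower and 10 (15.2%) higher, where 12.1% and 12.5% of all genes tested were, and their median log2 fold change was -0.09. The 4 genes with too few counts were *Mrln*, *Strit1*, *Atp2b2* and *Atp2b3*. By role, the calls lower and higher were 0 and 1 of 10 entry genes, 1 and 3 of 12 release genes, 2 and 1 of 5 store genes, 1 and 0 of 3 tested reuptake genes, 0 and 0 of 4 tested extrusion genes, 1 and 1 of 5 scaffold genes, 4 and 3 of 16 genes of control (kinases, phosphodiesterases, receptors, small GTPases and other regulators), 2 and 0 of 6 mitochondrial genes, and 0 and 1 of 5 store-operated entry genes.

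Among the wider list, 6 genes were called at a log2 fold change of 1 or more in either direction and a mean of at least 5 CPM. *Bin1*, whose protein bends membranes and takes part in forming transverse tubules, rose most, from 25.98, 25.5, 20.3 and 18.2 CPM in the wild-type to 92.8, 80.3, 66.4 and 67.1 CPM in the Tbx20EH1Mut libraries (log2 fold change 1.77, edgeR adjusted p = 1.09e-04). *Pde4b*, a cyclic AMP phosphodiesterase, rose from 13.0 ± 1.41 to 28.7 ± 0.960 CPM (log2 fold change 1.15, edgeR adjusted p = 1.91e-04). *Letm1*, a protein of the inner mitochondrial membrane, fell from 66.2 ± 11.3 to 25.2 ± 2.84 CPM (log2 fold change -1.40, edgeR adjusted p = 2.26e-04). These 3 genes did not overlap between genotypes and were called in all 8 fits that left out 1 library and in all 10 alternatives with every library.

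*Srl*, which encodes the store protein sarcalumenin, fell from 194 ± 55.2 to 95.9 ± 22.9 CPM without overlap (log2 fold change -1.02, edgeR adjusted p = 0.0117). *Srl* held in all 8 fits that left out 1 library but not relative to the cardiomyocyte markers (-1.04, edgeR adjusted p = 0.0781), and under the foregut covariate it was -1.76. *Cav3*, the caveolin of muscle membranes, went from 17.0 ± 8.32 to 7.62 ± 3.06 CPM with overlap (log2 fold change -1.16, edgeR adjusted p = 0.0389). The call of *Cav3* was lost without wild-type replicate 1 (adjusted p = 0.0725), 3 (0.0679) or 4 (0.0784) and without Tbx20EH1Mut replicate 1 (0.0955), 2 (0.0853) or 4 (0.0942), with upper-quartile scaling (0.0542) and with limma-voom (0.0544), and with foregut marker level added as covariate its log2 fold change was 0.14. *Atp2a1*, given above, is the other gene of the 6.

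**Figure D5:**
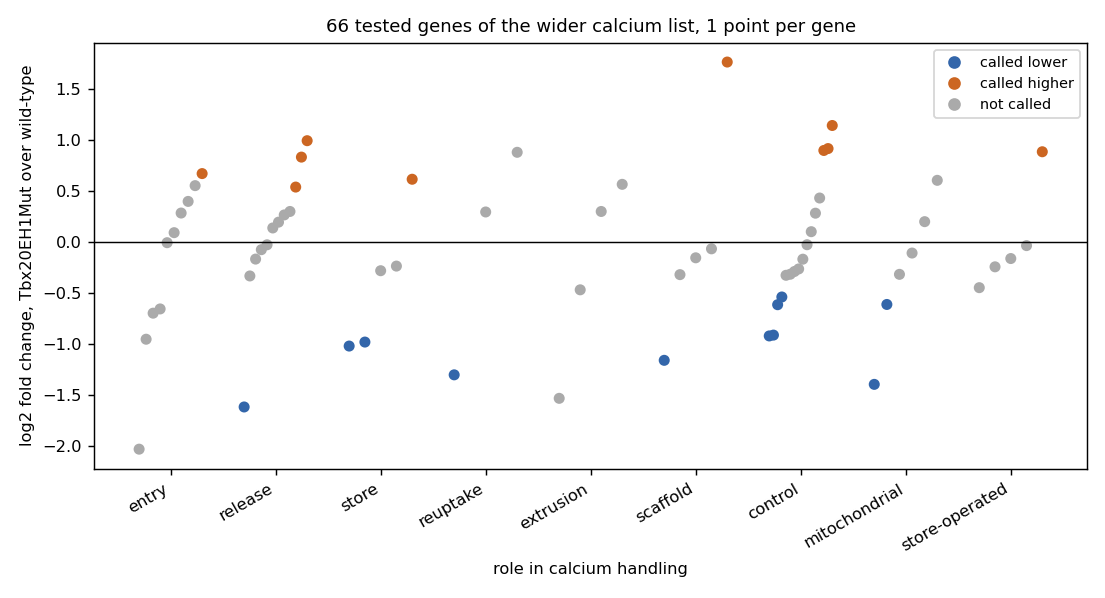
Log2 fold change (vertical axis, Tbx20EH1Mut over wild-type, n = 4 libraries each) of the 66 tested genes of the wider calcium list, 1 point per gene, grouped by role. Blue points were called lower (11), orange points higher (10) and grey points neither. *Bin1* is the highest point, among the scaffold genes.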

How the data were processed

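The authors deposited 1 table of raw, unnormalized counts per library, listing each Ensembl gene. By the study's methods, libraries were made from poly-A RNA of pooled hearts, and the submitters' processing notes name Trimmomatic 0.36, STAR 2.5.2b and GRCm38 (mm10). The counting tool and its strand setting are not given in the sources used here. Symbols came from GENCODE M21, and *Strit1* from RefSeq. Counts were filtered with filterByExpr (minimum count 10), scaled by TMM and fitted with glmQLFit and glmQLFTest of edgeR 4.0.16 (R 4.3.3), genotype being the only term, with Benjamini-Hochberg adjustment over the 17163 genes tested. The call rule is that of the study's methods. Levels are CPM on TMM-scaled library sizes. Intervals are 95% from the fit, exact permutation tests run over 70 arrangements, and depths are in the report. The steps were tested on simulated counts. Alternatives were RLE and upper-quartile scaling, scaling to the cardiomyocyte marker sum, DESeq2 1.42.0, limma-voom (limma 3.58.1), 2 other filters, a replicate block, a length offset (loess, span 0.3), the foregut markers' level as a covariate, and leaving out each library. Members, lists, named-gene rule (the members, their paralogs, *Tbx20*, and wider-list genes called at a log2 fold change of 1 or more either way and a mean of at least 5 CPM) and tests were chosen with earlier results of these data known. The labels number the libraries as replicates. P-values set the genotype difference against the spread between these libraries of pooled hearts. No 2 libraries of 1 genotype were alike within sampling noise. Plots were drawn with matplotlib 3.10.9 in Python 3.11.15.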

Additional observations from a re-analysis of the deposited data

Results flagged for a closer look

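In 62 groups of 4 libraries, covering the levels of the named genes and the 5 ratios, 3 libraries stood apart from the other 3 of their genotype by Dixon's test at its 95% level. Chance alone gives about 1 such group in 20. *Ryr2* was at 302 CPM in wild-type replicate 2, against 186 to 206 CPM in the other wild-type libraries. *Atp2a3*, a minor SERCA paralog, was at 5.59 CPM in Tbx20EH1Mut replicate 1, against 3.82 to 3.96 CPM in the other Tbx20EH1Mut libraries. The ratio per length of *Sln* to *Atp2a2* was 0.00278 in wild-type replicate 1, a value that rests on 21 counts of *Sln*, and at most 6.00e-04 in the other wild-type libraries.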

How the results depend on the processing

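Over the 598 values recomputed under alternatives, 542 kept their direction and their side of the threshold, or, for counts, stayed within 1.5 times, and 56 did not. The cause was not tested for any of these. Scaling to the cardiomyocyte markers left 1 member (*Atp2a2*) and 7 genes of the wider list called lower, and 720 lower and 1464 higher over all genes, against 2070 and 2148 with TMM. Upper-quartile scaling called 1566 and 2516. The members called higher were 0 with the length offset and 2 (*Trdn* and *Pln*) with the foregut covariate, which called 3481 and 3194 genes in all. With 1 library left out, 1 to 3 members were called lower and 0 to 1 higher, the wider list gave 8 to 14 lower and 7 to 12 higher, and all genes gave 1376 to 2719 lower and 1375 to 2948 higher. The ratio of *Sln* to *Atp2a2*, 0.553 in the analysis of all libraries, ran from 0.353 to 1.30 with 1 library left out and was 1.11 with wild-type replicates 1 and 2 both left out, an alternative chosen after seeing the data. Log2 fold changes that changed sign without passing the test were those of *Ryr2* (from -0.25 to 0.031 with 1 library left out), *Ryr1* (from -0.59 to 0.087, with 0.053 and 0.041 between them), *Jph3* (from -0.19 to 0.083, with 0.053 between them, 0.027 under upper-quartile scaling and 0.014 with the length offset) and *Jph4* (from -1.11 to 0.049, and 0.21 without wild-type replicates 1 and 2). With the foregut covariate, *Cacna1c* (-0.12), *Atp2a3* (-0.23) and *Cav3* (0.14) changed sign, *Casq1* was no longer called, and *Slc8a2* (-1.25) and *Slc8a3* (-3.19) were called lower.

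Replicate numbers did not pair the libraries, since the correlations of same-numbered libraries' deviations were -0.54, 0.43, 0.02 and 0.06, and not every library correlated best with its own number. With the replicate block, 3 members were called lower and 1 higher, 10 and 9 genes of the wider list and 1771 and 1910 of all genes, and *Atp2a2* had a log2 fold change of -0.87. Depth limits the statements on *Sln* and, less so, on *Casq2*.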

Other observations

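Calls in the wider list that were singled out after their values were seen include a second family of release channels, the inositol trisphosphate receptors. *Itpr2* rose from 12.1 ± 1.71 to 21.6 CPM on average without overlap (log2 fold change 0.84, edgeR adjusted p = 0.00610) and *Itpr3* from 14.1 to 20.5 CPM (0.54, edgeR adjusted p = 0.0496), while *Itpr1*, at 56.1 and 69.2 CPM, was not called (0.30, edgeR adjusted p = 0.135). *Adrb1*, a receptor gene at a low level, fell from 3.63 to 1.93 CPM without overlap (log2 fold change -0.91, edgeR adjusted p = 0.0184). *Prkaca*, the catalytic subunit of protein kinase A, fell from 146 to 100.8 CPM (log2 fold change -0.54, edgeR adjusted p = 0.00498). *Fkbp1b*, which encodes the FK506-binding protein that associates with RyR2, rose from 5.17 to 10.3 CPM (log2 fold change 0.997, edgeR adjusted p = 0.00342). Its paralog *Fkbp1a* was far more abundant, at 1207 and 1186 CPM, and was not called (log2 fold change -0.03, edgeR adjusted p = 0.933).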
